A study of Mus musculus with 4 samples.

Results

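The loci described here are those of the GATA transcription factor family and its FOG cofactors, 8 genes in all: Gata1, Gata2, Gata3, Gata4, Gata5, Gata6, Zfpm1 (which encodes FOG1) and Zfpm2 (FOG2). A peak was assigned to a gene where its summit lay in the mm10 gene body or within 50 kb of either end, and it was marked where no other gene of the annotation had a closer transcription start. By this rule 25 of 21831 RUNX1 peaks belonged to the 8 genes in the +DOX-labelled library and 24 of 18389 in the -DOX-labelled one, and 10 of 6356 and 11 of 7233 H3K27me3 peaks in the libraries titled untreated and titled DOX. After peaks with neighbouring summits were joined, these made 31 of 24972 RUNX1 sites and 17 of 8004 H3K27me3 regions. The 8 genes are among 21938 protein-coding genes.

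All 4 libraries came from mouse embryonic stem cells with the genotype Tet-on dominant-negative FOS (dnFOS), so the uninduced cells carry the transgene too, and the cells were floating hematopoietic progenitors (HP cells) taken at day 2. Doxycycline (DOX) induces dnFOS, a peptide that keeps AP-1 factors off chromatin, and the study asked how RUNX1 binding changes with it. There was 1 RUNX1 ChIP-seq library for each condition, without replicates, so no difference between them could be tested and no p-value is given. The track names inside the RUNX1 peak lists state the opposite treatment from the sample labels, so the libraries are called the +DOX-labelled and the -DOX-labelled library, and every RUNX1 direction below would turn if the lists were exchanged. The H3K27me3 libraries have a title and a treatment label that contradict each other. They are named by title and compared with nothing by treatment. The protocol text of all 4 samples names an anti-RUNX1 antibody alone, although the antibody label of these 2 says H3K27me3. Read depth is unknown, because the deposited lists hold peaks without counts, and the cell type could not be checked against marker expression. Peak strength is therefore given as -log10 q, the significance that MACS2 gave a peak within its own library, and as its percentile, the share of peaks of the same list with a lower value.

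GATA factors are zinc finger proteins that bind the core GATA word in DNA. Gata1, Gata2 and Gata3 act mainly in the blood system: GATA2 in stem and progenitor cells, GATA1 in erythroid cells, megakaryocytes, mast cells and eosinophils, and GATA3 in T cells. Gata4, Gata5 and Gata6 are known for their roles in heart and endoderm. FOG1 and FOG2 do not rely on DNA contacts of their own but bind the amino-terminal finger of a GATA factor, FOG1 as the partner of GATA1 in erythroid and megakaryocytic cells and FOG2 as the partner of GATA4 in the heart. RUNX1 works beside GATA factors, TAL1 and ETS factors at many blood enhancers. H3K27me3 is the histone mark laid down by Polycomb complexes, usually over CpG-rich promoters of developmental genes that are switched off. Gata1, Gata2, Gata3 and Zfpm1 are called the blood genes below and Gata4, Gata5, Gata6 and Zfpm2 the others.

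The sequences of the main sites follow, each as the 200 bases around the summit, on the plus strand of mm10, read from the reference genome. Capitals mark GATA words (AGATAA or TGATAA or AGATAG or TGATAG, on either strand), RUNX words (TGTGGT or TGCGGT on either strand) and, at the intronic Gata2 site, the E-box of the composite motif as well. The first is shown as the sole RUNX1 site of Gata1, at chrX:7971377-7971576.
Gata1 site: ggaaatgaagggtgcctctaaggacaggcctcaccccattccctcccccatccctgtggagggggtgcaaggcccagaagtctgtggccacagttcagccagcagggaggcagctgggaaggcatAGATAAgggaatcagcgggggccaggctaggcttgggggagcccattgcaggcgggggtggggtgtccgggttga
The next pair are the 2 strongest RUNX1 sites around Gata2, upstream of the gene at chr6:88189787-88189986 and in intron 4 at chr6:88203065-88203264.
Gata2 upstream site: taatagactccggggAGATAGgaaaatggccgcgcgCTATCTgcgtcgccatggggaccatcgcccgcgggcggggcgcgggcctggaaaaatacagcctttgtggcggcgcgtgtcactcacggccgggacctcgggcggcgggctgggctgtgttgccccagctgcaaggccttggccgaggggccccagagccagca
Gata2 intronic site: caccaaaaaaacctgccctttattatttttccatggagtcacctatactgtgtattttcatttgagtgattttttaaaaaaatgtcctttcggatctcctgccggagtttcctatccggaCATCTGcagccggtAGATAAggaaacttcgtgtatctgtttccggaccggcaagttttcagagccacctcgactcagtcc
For Zfpm1, the strongest RUNX1 site of any of the 8 genes lay at chr8:122314989-122315188, the site with the most GATA words at chr8:122309419-122309618, and the strongest site called in 1 library alone at chr8:122321723-122321922.
Zfpm1 strongest site: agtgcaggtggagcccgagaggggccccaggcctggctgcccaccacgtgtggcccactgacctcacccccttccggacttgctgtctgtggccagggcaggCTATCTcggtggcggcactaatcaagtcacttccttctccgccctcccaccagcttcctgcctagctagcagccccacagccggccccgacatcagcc
Zfpm1 GATA-rich site: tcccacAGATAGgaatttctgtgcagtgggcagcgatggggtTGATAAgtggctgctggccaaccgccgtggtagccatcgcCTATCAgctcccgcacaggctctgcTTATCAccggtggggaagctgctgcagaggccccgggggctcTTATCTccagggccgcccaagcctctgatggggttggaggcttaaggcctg
Zfpm1 one-library site: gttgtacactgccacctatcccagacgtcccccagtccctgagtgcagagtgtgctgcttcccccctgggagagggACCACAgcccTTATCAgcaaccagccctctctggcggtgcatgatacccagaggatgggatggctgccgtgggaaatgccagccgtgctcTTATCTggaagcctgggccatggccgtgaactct
One Gata4 site is shown because its joined interval overlapped an H3K27me3 peak and its window carried overlapping GATA words near the edge. The printed bases, at chr14:63256003-63256202, lie outside that peak, which ended at 63255791.
Gata4 intronic site: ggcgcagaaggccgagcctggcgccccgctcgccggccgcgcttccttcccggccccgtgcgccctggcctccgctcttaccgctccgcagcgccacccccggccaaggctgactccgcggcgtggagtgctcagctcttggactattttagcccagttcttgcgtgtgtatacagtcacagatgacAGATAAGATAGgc
An H3K27me3 region of Gata5 is shown as well, with its CG dinucleotides in capitals, at chr2:180333795-180333994. It was chosen after the values were seen. CG is not capitalised in the RUNX1 sequences. The ratio of observed to expected CpG was 0.717 in this region. Of the RUNX1 sites shown, the Gata2 sites (0.894 and 0.865) and the Gata4 site (0.920) had higher ratios. The Gata1 site (0.154) and the Zfpm1 sites (0.270 to 0.419) had lower ones.
Gata5 H3K27me3 region: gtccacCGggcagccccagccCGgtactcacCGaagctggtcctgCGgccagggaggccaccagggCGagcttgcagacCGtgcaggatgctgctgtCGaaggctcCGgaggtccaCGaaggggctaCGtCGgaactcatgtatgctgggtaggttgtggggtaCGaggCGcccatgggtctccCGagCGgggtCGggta

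RUNX1 sites were spread unevenly over the 8 loci. Zfpm1 held 15 of the 31, Gata4 held 7, Gata2 held 5, Zfpm2 held 2, Gata1 and Gata6 held 1 each, and Gata3 and Gata5 held none. So 6 of the 8 genes had a RUNX1 site of either library in their window, against 78.0% of all protein-coding genes, and the same 6 had a site nearest to their own start, against 51.7%. In the single libraries, 5 genes had a peak in the window in the +DOX-labelled library and 6 in the -DOX-labelled library, against 75.7% and 73.5% of all genes, and the same numbers had a peak nearest to their start, against 48.0% and 44.2%. The window shares are close to the background. The shares with a site nearest to the own start are above it, over 8 genes and untested. The count at Zfpm1 was at the 99.7 percentile of all protein-coding genes and that at Gata4 at the 89.8 percentile, while Gata2 was at 76.5. Counted as sites nearest to the own start, Zfpm1 had 9 and was at the 99.9 percentile, and Gata2 and Gata4 had 3 each and were at 95.2.

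H3K27me3 regions had another distribution. Gata4 held 6, Gata3 and Gata6 held 3 each, Gata1 and Gata5 held 2 each, Gata2 held 1, and Zfpm1 and Zfpm2 held none. A region lay in the window of 6 of the 8 genes, against 39.9% of all protein-coding genes. A region nearest to the own start was found at 5 of the 8, namely Gata2, Gata3, Gata4, Gata5 and Gata6, against 16.3%. In the single libraries, 5 and 6 genes had a peak in the window in the libraries titled untreated and titled DOX, against 33.2% and 35.3% of all genes, and 3 and 5 had a peak nearest to their start, against 13.3% and 13.7%. Of the 12 regions nearest to a member's start, 10 belonged to Gata4, Gata5 and Gata6. By widened summits 3 of the 17 regions were called in both libraries, against 44.9% of all H3K27me3 regions. With whole peaks merged instead, again 17 regions, 3 were called in both, against 39.2%, but 1 of the 3 was in Gata6 in place of Gata4. The mark was also called in narrow pieces, 21 peaks with a median of 170 bp, from 76 to 980 bp.

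**Figure D1:**
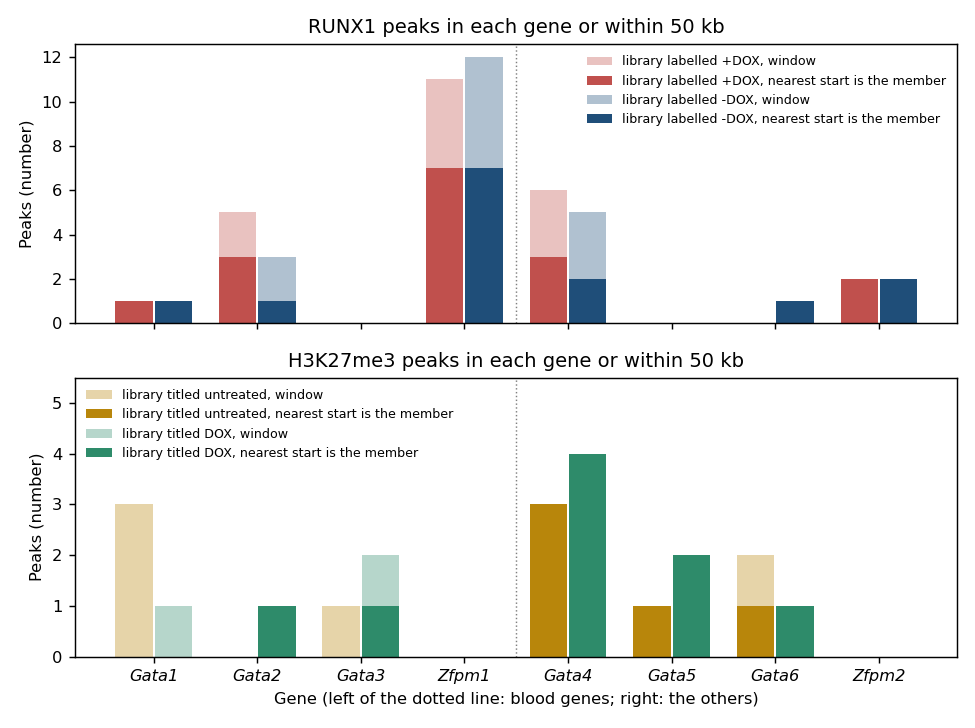
Number of peaks in the gene or within 50 kb (y axis) for each of the 8 genes (x axis) in each library, with RUNX1 above and H3K27me3 below; the full colour is the part of the pale bar whose nearest start is the member's. Zfpm1 held 11 and 12 RUNX1 peaks and no H3K27me3 peak, and Gata4 held 6 and 5 RUNX1 peaks with 3 and 4 H3K27me3 peaks.

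Grouped, the 4 blood genes held 21 RUNX1 sites in 520 kb of window and the 4 others 10 in 965 kb, or 4.04 and 1.04 sites per 100 kb. The contrast rested on the cofactors. Without Zfpm1 the blood genes had 6 sites in 365 kb, which is 1.64 per 100 kb, and without Zfpm2, whose gene body alone is 450 kb long, the others had 8 in 416 kb, which is 1.92 per 100 kb. By window, the 6 GATA genes alone therefore showed no higher RUNX1 density on the blood side. The window counts include sites at neighbouring genes: of 7 sites in the Gata4 window 3 had Gata4 as the nearest start. By nearest start Gata1, Gata2 and Gata3 had 1, 3 and 0 sites, and Gata4, Gata5 and Gata6 had 3, 0 and 1. For H3K27me3, 6 regions at the blood genes and 11 at the others came to 1.15 and 1.14 per 100 kb, and without the cofactors, which held none, to 1.64 at Gata1, Gata2 and Gata3 and 2.64 at Gata4, Gata5 and Gata6. The groups also differed in position: 2 of the 6 and 10 of the 11 had the member as the nearest start, and 2 and 7 lay within 1500 bp of one of its starts. Of those 11 regions 6 were in Gata4, which leaves 5 without it.

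Zfpm1 (chr8:122282141-122337251, plus strand) was the locus with the most RUNX1 sites for the length of its window, 9.67 sites per 100 kb. Another annotated gene, the long transcript unit Gm20388, spans the whole locus on the same chromosome stretch, so the sites also lie in its introns. Of the 15 sites 9 were inside the Zfpm1 gene body, and 5 of these lay in intron 3 over a span of 12.3 kb. The strongest site, 32.9 kb downstream of the 5′ end in this intron, had a -log10 q of 59.6 in the +DOX-labelled library and 54.4 in the -DOX-labelled one. Those values exceed 97.3% and 96.6% of the peaks in the respective list, and its fold enrichment over local background was 9.25 and 8.98. The site thus ranked alike in both lists, and in both it was the strongest of the 31.

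Another strong site of the same intron, at 27.4 kb, is the GATA-rich sequence above, with 5 GATA words in 200 bases. Its -log10 q was 29.6 in the +DOX-labelled library and 48.6 in the -DOX-labelled library, at the 90.2 and 95.7 percentiles of their lists. A site in intron 1, at 22.2 kb, showed the largest gap between the libraries of any shared site in the family. It had a -log10 q of 25.1 (87.2 percentile) in the +DOX-labelled library and 7.42 (44.6 percentile) in the -DOX-labelled library, a difference of 42.5 points, and 95.2% of all 14177 shared sites had a lower difference. The window of this site held a RUNX word and no GATA word.

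Of the 9 Zfpm1 sites nearest to the gene's own start, 4 were called in 1 library. The strongest was the intron 3 site at 39.7 kb, called in the -DOX-labelled library with a -log10 q of 19.7 and a fold enrichment of 5.75 (82.0 percentile by q). Its window held 2 GATA words and a RUNX word, and the closest summit of the other list was 3415 bp away. The promoter site, 44 bp downstream of the 5′ end in exon 1, was called in the +DOX-labelled library, with a -log10 q of 8.24 (48.1 percentile). The remaining pair were weak: 2.53 (2.89 percentile) at 51.1 kb in the -DOX-labelled library, and 4.55 (17.2 percentile) at 54.2 kb, in coding exon 10, in the +DOX-labelled library. A single site lay upstream, at -35.2 kb, with 3.19 (4.95 percentile) in the +DOX-labelled library. Downstream of the gene, 5 further sites lay between 57.0 and 94.9 kb from the 5′ end, with the higher of their percentiles by q from 25.3 to 63.1. By fold enrichment many Zfpm1 sites ranked low. Those at 36.3, 51.1, 54.2, 57.0 and 59.8 kb were at the 0.285 to 0.717 percentile of their lists. The site at 60.9 kb was at 1.56 and 0.345. For the other Zfpm1 sites the higher fold percentile ranged from 8.18 to 90.3. No H3K27me3 region of either library lay in the window.

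Gata2 (chr6:88193891-88207032, plus strand) had RUNX1 sites on both flanks and inside the gene. The site in intron 4 of its main transcript, 9.3 kb from the 5′ end, was the strongest with Gata2 as the nearest start. It had a -log10 q of 14.6 in the +DOX-labelled library and 10.8 in the -DOX-labelled library, at the 72.4 and 62.3 percentiles, with fold enrichments of 5.57 and 5.11. Its window carried the composite of CATCTG followed 8 bases later by AGATAA, the arrangement of an E-box and a GATA word that TAL1 and GATA factors are known to bind together. An intronic enhancer of Gata2 with these 2 words is known to be needed for blood stem cell formation. Of all 24972 RUNX1 sites 24, or 0.0961%, held such a composite with a spacer of 6 to 10 bases, and among the 31 sites of the 8 genes this was the sole one.

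The upstream site, 4.0 kb before the Gata2 5′ end, lay in an intron of Gm38708, whose start is 795 bp away, so it counts for Gata2 by protein-coding start alone. It ranked higher in the -DOX-labelled library, with a -log10 q of 21.3 (83.9 percentile) against 10.7 (59.6 percentile). Its 2 GATA words stood at one edge of the window, 81 and 60 bp before the summit. The downstream site, 60.3 kb from the 5′ end in an intron of Dnajb8, went the other way, with 12.2 (65.6 percentile) in the +DOX-labelled library and 7.22 (43.5 percentile) in the -DOX-labelled library. The 3 Gata2 sites called in both lists therefore did not shift in 1 direction. At 2 of the Gata2 starts a weak site was called in the +DOX-labelled library alone: 3.04 (4.10 percentile) 104 bp past the 5′ end and 3.94 (11.0 percentile) at 4.4 kb, 32 bp before an internal start. Between them, at 3.4 kb and 999 bp before that internal start, stood the single H3K27me3 region, called in the library titled DOX with a -log10 q of 11.8, at the 85.3 percentile. Gata2 was the sole blood gene with both a RUNX1 site and an H3K27me3 region nearest to its start, which 9.51% of all protein-coding genes had.

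Gata1 (chrX:7959260-7978071, minus strand) had 1 RUNX1 site, and it ranked high in both lists. It lay in an intron of a longer Gata1 transcript and 3566 bp upstream of the nearest Gata1 start. Its -log10 q was 18.6 in the +DOX-labelled library and 34.9 in the -DOX-labelled library, at the 80.0 and 92.6 percentiles, and its fold enrichment was 8.64 and 12.4. The higher value was in the -DOX-labelled library by 12.6 points. Mouse Gata1 is known to have an enhancer upstream of its erythroid first exon. The window held 1 GATA word, 29 bp after the summit, and no RUNX word. The 2 H3K27me3 regions in the Gata1 window were both at Pcsk1n, a neuroendocrine gene, and none was nearest to Gata1.

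Gata3 (chr2:9857078-9890034, minus strand) had no RUNX1 site of either library in its window. Its 3 H3K27me3 regions were each called in 1 library and none was strong. The region of highest percentile, 6.2 kb upstream, had a -log10 q of 4.61 (41.3 percentile) in the library titled DOX and was the one with Gata3 as the nearest start. The others had 4.03 (32.0 percentile) in the library titled DOX and 1.80 (0.354 percentile) in the library titled untreated.

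**Figure D2:**
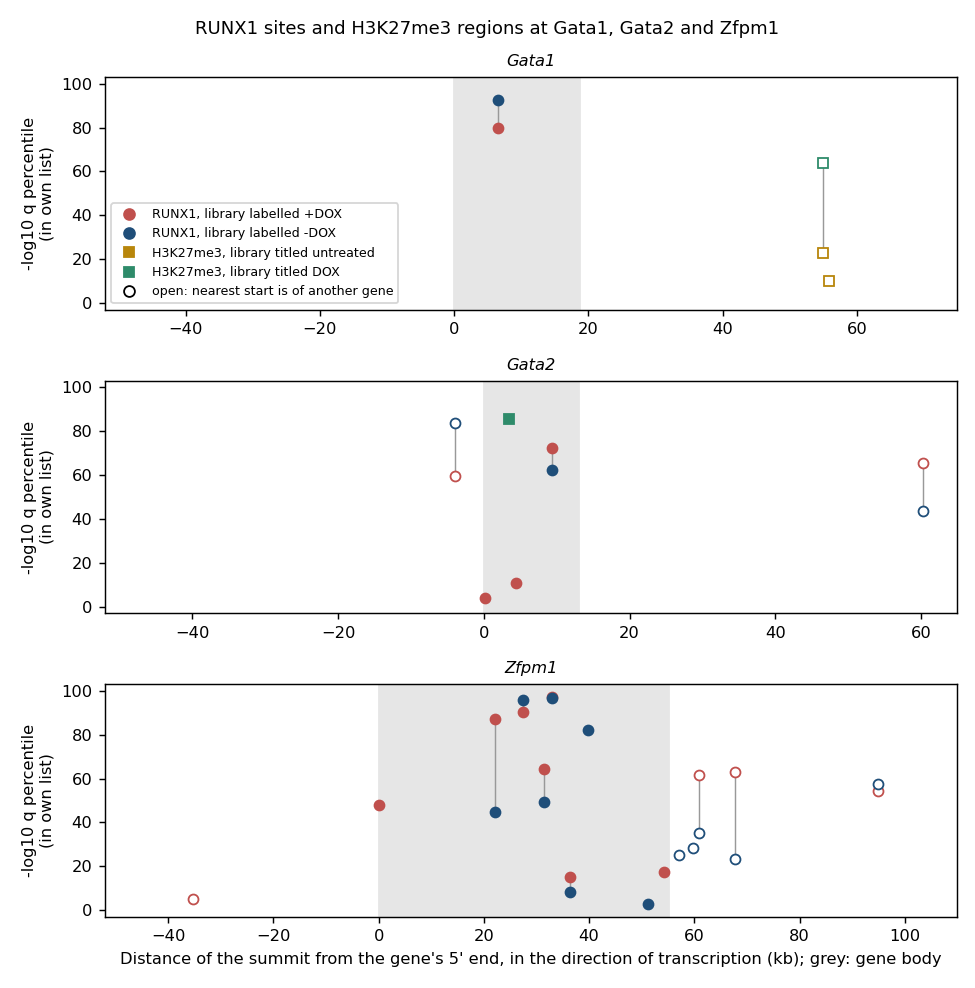
Percentile of -log10 q in the own list (y axis) against the distance of the summit from the 5′ end in the direction of transcription, in kb (x axis), at Gata1, Gata2 and Zfpm1; grey marks the gene body, a line joins the values of 1 site in both libraries, and open symbols have another gene's start nearest. The intron 3 sites of Zfpm1 at 27.4 and 32.9 kb stand above 90% of both lists, and the Gata2 site upstream is higher in the -DOX-labelled library while the intronic and downstream sites are higher in the +DOX-labelled library.

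Gata4 (chr14:63198922-63271692, minus strand) had both RUNX1 sites and H3K27me3 regions nearest to its own starts. Of its 7 RUNX1 sites 4 lay at the starts or in introns of Fdft1, which encodes squalene synthase, and Neil2, a DNA glycosylase gene, both downstream, and 3 had Gata4 as the nearest start. The strongest lay 152 bp upstream of an internal Gata4 start, 26.3 kb from the 5′ end of the gene body, with a -log10 q of 17.2 (77.8 percentile) in the +DOX-labelled library and 12.9 (69.0 percentile) in the -DOX-labelled library. The intronic site printed above, at 15.6 kb, had 6.28 (33.2 percentile) and 4.99 (23.7 percentile). Both overlapped an H3K27me3 peak of the library titled DOX, counted with the joined interval of widened summits. They were the 2 of the 31 RUNX1 sites that overlapped an H3K27me3 peak of either library. That is no more than the 7.76% of all RUNX1 sites (6.56% for the library titled DOX alone). At both sites the RUNX1 peak of the -DOX-labelled library met the edge of the H3K27me3 peak, and that of the +DOX-labelled library did not. No RUNX1 summit of these sites lay inside an H3K27me3 peak. The third site, 3.8 kb upstream of the gene, was called in the +DOX-labelled library alone with 6.71 (37.2 percentile).

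The 6 H3K27me3 regions of Gata4 all had Gata4 as the nearest start, which put the gene at the 99.9 percentile of all protein-coding genes. By regions per 100 kb of window the gene was at the 96.3 percentile. Its region of highest percentile, in coding exon 2, had a -log10 q of 9.15 (69.9 percentile) in the library titled untreated and was not called in the library titled DOX. The region over the internal start, in exon 1 of the main transcript and 43 bp from the start, had 5.58 (52.7 percentile) in the library titled DOX and was not called in the other. A single one of the 6 was joined from both, with 2.45 (2.93 percentile) and 2.24 (6.38 percentile), and its 2 peaks did not themselves overlap. No Gata4 peak of one library thus overlapped a peak of the other.

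Gata5 (chr2:180325133-180334699, minus strand) had H3K27me3 and no RUNX1 site. The region in exon 1, 0.3 kb from the start, was called in both libraries with a -log10 q of 9.48 (71.3 percentile) in the library titled untreated and 8.68 (75.5 percentile) in the library titled DOX. The adjoining region, 0.8 kb from the start, had 9.73 (79.7 percentile) in the library titled DOX. The untreated peak was 980 bp wide and overlapped both peaks of the library titled DOX, so the 2 libraries called 1 stretch at the Gata5 start.

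Gata6 (chr18:11052064-11085635, plus strand) had H3K27me3 at its first coding exon and a RUNX1 site far inside the gene. The 2 regions nearest to its starts, 2.2 and 2.8 kb from the 5′ end, had a -log10 q of 12.6 (82.0 percentile) in the library titled untreated and 8.41 (74.2 percentile) in the library titled DOX. Their summits were too far apart to be joined, but the peaks themselves overlapped, so both libraries called this stretch. The RUNX1 site, in intron 6 at 26.2 kb, was called in the -DOX-labelled library alone, with a -log10 q of 16.0 (76.2 percentile) and a fold enrichment of 7.83, and the closest summit of the other list was 352601 bp away. Its window held 2 GATA words and an ETS word.

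Zfpm2 (chr15:40655035-41104592, plus strand) had 2 RUNX1 sites and no H3K27me3 region in a window of 550 kb. The promoter site in exon 1, 168 bp from a start, had a -log10 q of 12.2 (65.6 percentile) in the +DOX-labelled library and 14.0 (71.9 percentile) in the -DOX-labelled library. The site in intron 2 was near the calling limit in 1 list, with 2.15 (0.584 percentile) and 4.56 (19.6 percentile). So Zfpm2 shared with Zfpm1 the lack of H3K27me3 and not the number of RUNX1 sites.

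**Figure D3:**
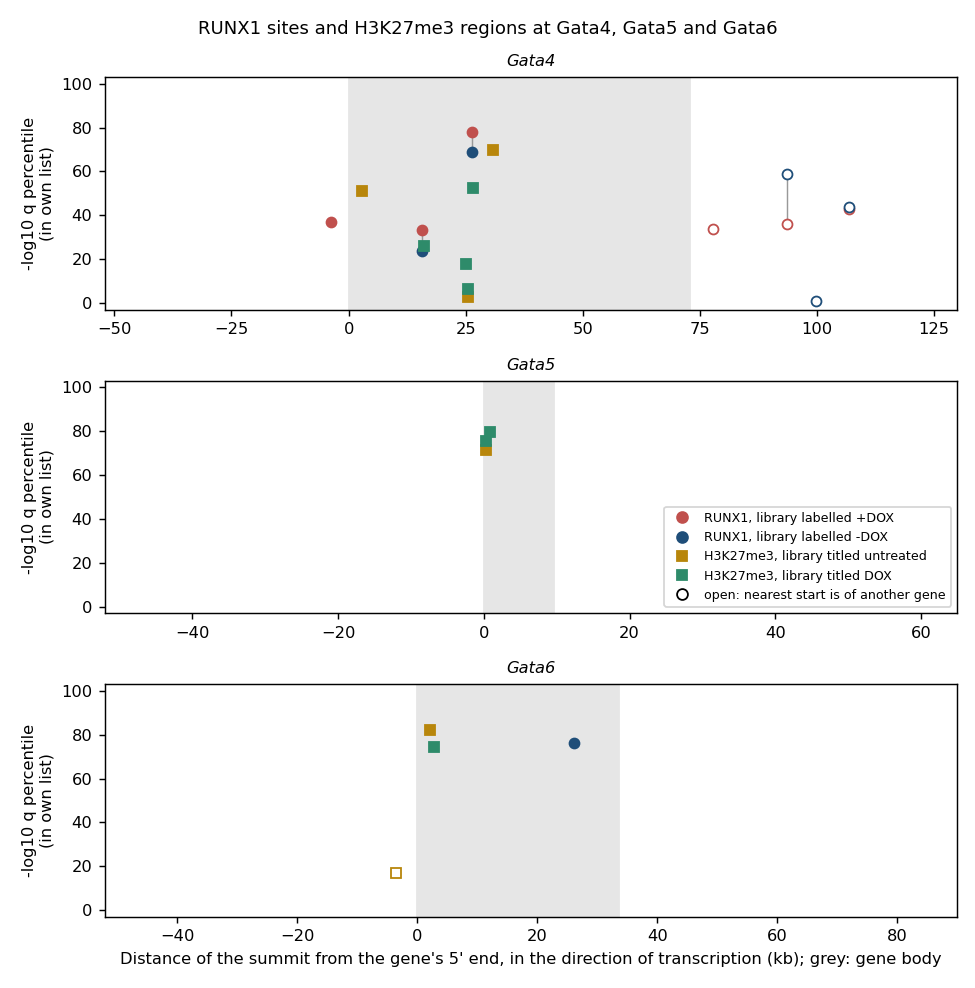
Percentile of -log10 q in the own list (y axis) against the distance of the summit from the 5′ end in the direction of transcription, in kb (x axis), at Gata4, Gata5 and Gata6; circles are RUNX1, squares H3K27me3, grey marks the gene body, and open symbols have another gene's start nearest. RUNX1 and H3K27me3 symbols lie close together in Gata4, near 15.6 and 26.3 kb, while Gata5 has squares alone.

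Across the 31 RUNX1 sites, 18 were called in both libraries (58.1%), 7 in the +DOX-labelled library alone (22.6%) and 6 in the -DOX-labelled library alone (19.4%). Over all RUNX1 sites these shares were 56.8%, 28.4% and 14.8%, so the family was close to the background in each class. With the lists exchanged, the 7 and the 6 change places. None of the 13 peaks called in 1 list overlapped a peak of the other list. They were mostly weak, like all 10795 such sites of the series. A -log10 q of at least 10 was reached by 2 of the 13, against 11.5% of all such sites. The 2 were the Zfpm1 site at 39.7 kb and the Gata6 site, both from the -DOX-labelled library. The median percentile was 25.3, against 25.6 over all such sites.

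Among the 18 shared sites, 8 had a lower percentile in the +DOX-labelled library (44.4%), against 42.0% of all shared sites, and the median difference was 3.79 points, against 1.83 over all. The standard deviation of the difference over all 14177 shared sites was 21.3 points. It was exceeded by 6 of the 18, in both directions. The Zfpm1 sites at 22.2, 60.9 and 67.7 kb and the Gata2 site at 60.3 kb were higher in the +DOX-labelled library. The Gata2 site at 4.0 kb upstream and a Fdft1 promoter site in the Gata4 window were higher in the -DOX-labelled library. Of all shared sites, 82.2% had a lower difference than the Gata2 site at 60.3 kb (22.0 points). For the Fdft1 site (-22.8 points) this share was 9.13%, so differences of this size were not particular to the family. No replicate shows how much of this spread repeat libraries of 1 condition would give. The shared sites of the blood genes ranged from -24.3 to 42.5 points and those of the others from -22.8 to 9.46, and the ranges overlapped.

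**Figure D4:**
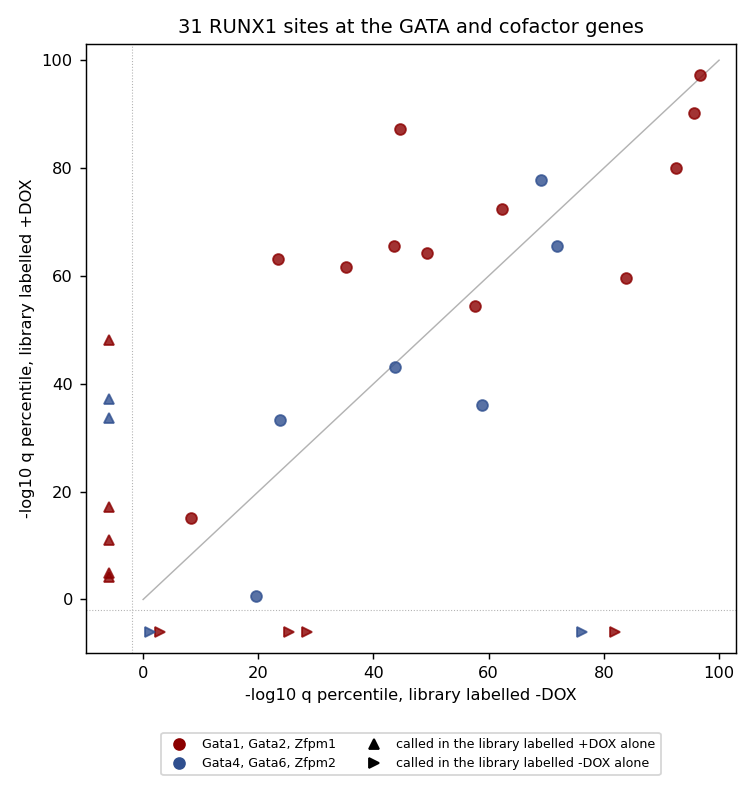
Percentile of -log10 q in the +DOX-labelled library (y axis) against that in the -DOX-labelled library (x axis) for the 31 RUNX1 sites, with the line of equal values; triangles outside the dotted lines are sites called in 1 library. The strongest Zfpm1 site lies near the line, the Zfpm1 site with 87.2 against 44.6 lies farthest from it, and most sites called in 1 library are below the 50 percentile, apart from 2 of the -DOX-labelled library at 76.2 and 82.0.

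The windows of 200 bp at the summits were searched for short words. A GATA word was found in 15 of the 31 sites, 48.4% with a 95% Wilson interval of 32.0 to 65.2%, against 25.4% of all RUNX1 sites and 30.8% of windows placed 2000 bp away on both sides of every site. The intervals cover counting error only, and sites of 1 gene are not independent. The word was found in 10 of 21 sites at the blood genes and in 5 of 10 at the others, so it did not mark the blood side. RUNX words were found in 11 sites, 35.5% against 37.4% of all RUNX1 sites, and ETS words (CAGGAAG or CAGGAAA or CCGGAAG or CCGGAAA) in 9, 29.0% against 29.8%. Both shares over the 31 sites were near those of all RUNX1 sites. By group, RUNX words were found in 5 of 21 sites at the blood genes (23.8%) and in 6 of 10 at the others (60.0%). The intervals, 10.6 to 45.1% and 31.3 to 83.2%, overlapped, and in 400 bp the shares were 57.1% and 60.0%. An AP-1 word (TGACTCA or TGAGTCA) was found in 0 of the 31, with an upper limit of 11.0%, against 4.98% of all, so the count of 0 does not set the family apart. A GATA and a RUNX word stood together in 5 sites (16.1%), against 11.7% of all. The composite motif contains a GATA word, so its site counts in both.

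Of the 10 shared sites with a GATA word, 4 had a lower percentile in the +DOX-labelled library, and of the 8 without one, 4 did. Over all shared sites 51.6% of those with a GATA word were lower in that library, against 39.0% of those without, and the few sites here cannot show a difference of that size. Base composition differed between the kinds of site: the median G+C share was 61.0% at the 31 RUNX1 sites and 67.5% at the 17 H3K27me3 regions, and the median ratio of observed to expected CpG was 0.354 and 0.738. Over all sites of the series the G+C shares were 57.0% and 63.5% and the CpG ratios 0.455 and 0.607. By the median, the RUNX1 sites of the 8 genes were thus poorer in CpG than their H3K27me3 regions, as over all sites. The ranges of the ratio at the 8 genes overlapped, 0 to 1.10 at RUNX1 sites and 0.376 to 0.989 at H3K27me3 regions.

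**Figure D5:**
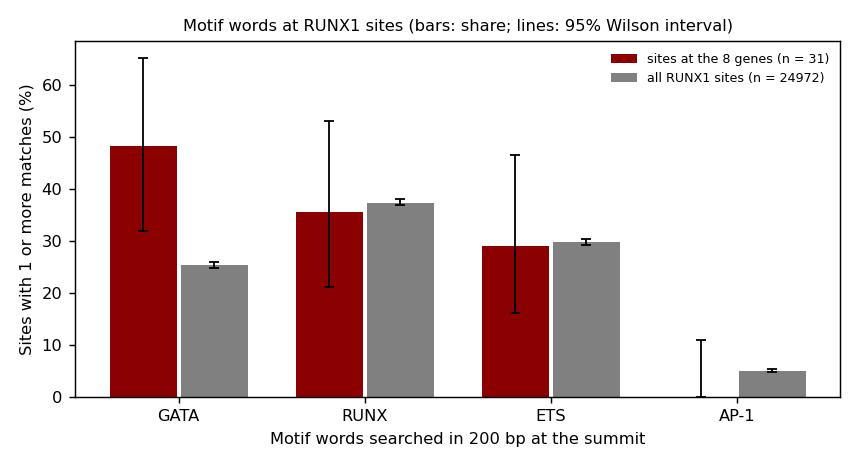
Share of sites with 1 or more matches in the 200 bp at the summit, in percent (y axis), for GATA, RUNX, ETS and AP-1 words (x axis), at the 31 sites of the 8 genes and at all 24972 RUNX1 sites; lines are 95% Wilson intervals. The GATA share of 48.4% stands above the 25.4% of all sites, and the interval reaches down to 32.0%.

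Other genes of the same programmes were counted by the same rule, with a site nearest to the gene's own start and within 50 kb. Of 12 genes for blood regulators, 11 had a RUNX1 site, against 51.7% of all protein-coding genes. An H3K27me3 region was found at 1 of them, Fli1, against 16.3% of all. Runx1 itself held 10 sites, and Lmo2 and Cbfa2t3 held 6 each, next to the 9 of Zfpm1. The exception was Gfi1b with none. Of 11 heart and endoderm factors 7 had a RUNX1 site and 6 an H3K27me3 region, among them Nkx2-5 with 4 regions, and Sox17 and Nr2f2 with 2 each. Gata4, with 6, had more regions than any gene of that list. Of 9 further genes that encode GATA-type zinc fingers, 8 had a RUNX1 site and 1, Rere, an H3K27me3 region. Rere held 11 RUNX1 sites and Gatad2a 6, so high counts were not confined to the blood list. These lists are a description and were not tested.

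The window edge decided a few sites. The outermost RUNX1 site inside it past the end of Gata2 lay 47.2 kb beyond the gene, with the values given above. Just outside, a Zfpm1 RUNX1 site 51.4 kb upstream had a -log10 q of 3.45 (8.09 percentile) in the +DOX-labelled library. Past the 3′ end of Gata5, which had no RUNX1 site in its window, sites lay 51.2 kb away, with 3.36 (8.05 percentile) in the -DOX-labelled library alone, and 52.0 kb away, in an exon of Cables2, with 11.3 (62.1 percentile) and 10.6 (61.5 percentile). A Zfpm1 H3K27me3 region 51.8 kb upstream was called in both libraries with 14.6 (85.6 percentile) and 13.5 (88.4 percentile). It was stronger than any H3K27me3 region inside the 8 windows, so the absence of the mark from the Zfpm1 window holds up to this distance.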

How the data were processed

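RUNX1 and H3K27me3 ChIP-seq peak lists of 4 libraries were used. Cells were crosslinked with DSG and formaldehyde. The study's methods give, for RUNX1, trimming with Trimmomatic, alignment to mm10 with Bowtie2, removal of duplicates with Picard and per-library MACS2 peak calling (q-value threshold 0.05); the submitters' processing notes name Bowtie2 2.2.9 and MACS2 2.1.1. Whether the deposited lists had passed the study's filter for blacklisted and repeat regions is not stated. An input control and the H3K27me3 processing are not given in the sources used here. The deposited peak lists hold a ratio, the fold enrichment over local background, and -log10 values of the p-value and the q-value. Without counts or depths no interval was set on a peak.

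Within each antibody, peaks were joined into a site where their summits, widened by 200 bp both ways, overlapped. The percentile is the share of a library's peaks with a lower -log10 q. Genes and starts came from GENCODE release M21, and sequence from the GRCm38.p6 reference, in which 0 of 21 chromosomes had a peak beyond its end. Peaks on other contigs (147 to 300 for each list) were left out. Intervals on shares of sites are 95% Wilson intervals. Analysis used Python 3.11.15 with scipy 1.17.1, and the steps were tested on simulated lists. With 1 library for each condition no test was possible. Members, gene lists and motif words were chosen with earlier results of these data known. All 8 members were described, and in full the strongest RUNX1 site nearest to each, each such site called in 1 list, and the strongest H3K27me3 region. Alternatives were other windows, thresholds, joining rules, motif windows and exchanged labels. One gene of the lists is not reported here.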

Additional observations from a re-analysis of the deposited data

How the results depend on the processing

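The 21 RUNX1 sites of the blood genes became 13 in the gene bodies alone, 36 with a window of 100 kb, 13 by nearest start of any gene, 11 at a -log10 q of 10 or more, 6 with the 5000 strongest peaks of each list and 6 without Zfpm1. The 10 of the others became 5, 20, 6, 3 and 2 under the same first 5 settings, 6 by nearest protein-coding start and 3 without Gata4. For the blood genes the 6 H3K27me3 regions became 3 in the gene bodies, 2 by nearest start of any gene, 3 by nearest protein-coding start, 2 at a -log10 q of 5 or more and 1 at 10. For the others the 11 became 7 at 5, 1 at 10, 7 with the 5000 strongest peaks and 5 without Gata4. Sites called in the +DOX-labelled library alone went from 7 to 15 with 100 kb, 2 with the 5000 strongest peaks and 0 where a -log10 q of 10 or more and no overlap with the other list were required, and those of the -DOX-labelled library from 6 to 10, 3 and 2. The RUNX word share of 35.5% was 19.4% in 100 bp (25.4% of all sites) and 58.1% in 400 bp (48.9%), and the GATA share stayed above that of all sites, 35.5% against 16.0% and 58.1% against 37.9%. The blood genes held more RUNX1 sites than the others in every setting run for both. Without Zfpm1, a setting run for the blood genes alone, they held 6, against the 10 of the others in the main setting. Zfpm1 held 15 of the 21 in the main setting, so the order rested largely on 1 gene. Leaving out Zfpm1, Zfpm2 or Gata4 and merging whole H3K27me3 peaks to count shared regions were chosen after seeing the data. Depth is unknown, so a missing peak is not the absence of binding. No paired analysis was possible because each condition has 1 library and the labels carry no replicate numbers.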

Other observations

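Beyond the windows, chosen after their values were seen, the strongest RUNX1 site within 100 kb upstream of Gata2 lay 87.0 kb before its 5′ end, in intergenic sequence. The nearest start to this site was that of Mir6376, 2652 bp away, and the nearest protein-coding start that of Rpn1. The site had a -log10 q of 27.5 in the +DOX-labelled library and 33.7 in the -DOX-labelled library, at the 89.0 and 92.2 percentiles. These were above both values of every site in the Gata2 window. A weaker site 77.2 kb upstream of Gata2, a stretch in which a distal enhancer of the gene is known, had 2.72 (2.01 percentile) and 4.25 (16.1 percentile). Mir6376 was again the nearest start, 12399 bp away. Gata3, with no RUNX1 site in its window, had one 55.4 kb past its 3′ end with 8.08 (46.8 percentile), called in the +DOX-labelled library alone. An H3K27me3 region 51.6 kb upstream of Gata5 was called in both libraries, with 8.62 (66.0 percentile) in the library titled untreated and 5.14 (48.5 percentile) in the library titled DOX. It lay 365 bp from the start of B230312C02Rik, the nearest start.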
